A study of Homo sapiens with 10 samples.

Results

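Endoderm and neural progenitors are compared here, 2 derivatives of the same human embryonic stem cell line that were made under opposite settings of activin signalling. Definitive endoderm (DE) was made with added activin A, and neural progenitors (NPC) were made while the receptors for activin and for BMP were inhibited. For each gene the change against the stem cells was taken in the DE table and in the NPC table, and the NPC change was subtracted from the DE change. Genes entered when they stood in both tables on chromosomes 1 to 22 or X with at least 1 FPKM in any of the 4 columns, which kept 13395 of 21434 shared symbols, where the tables of the series name 22013 symbols in common. FPKM counts the fragments of a gene relative to its transcript length and to all fragments mapped.

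The series holds poly-A RNA from WA09 cells, a widely used line of human embryonic stem cells (hESC), and from 4 cell types derived from them, with 2 libraries for each of the 5 cell types and 10 libraries in all. The DE and NPC libraries number 4, and the 2 hESC libraries are taken as the control of both. Cells grew on Matrigel. The hESC were cultured for 4 days after seeding at 50000 cells per square centimetre, in a medium that contained activin A (10 ng/mL), heregulin (10 ng/mL), IGF-I (200 ng/mL) and FGF (8 ng/mL). DE cells were seeded at the same density and cultured for 4 days with activin A (100 ng/mL) and FGF (8 ng/mL), and 25 ng/mL Wnt-3a was present on the first day only. IGF-I and heregulin were left out of the DE medium. NPC were seeded at 90000 cells per square centimetre and cultured for 6 days with heregulin (10 ng/mL) and IGF-I (200 ng/mL), with the activin receptor inhibitor SB431542 and with the BMP receptor inhibitor LDN (500 nM). The NPC medium held neither FGF nor activin A. DE and NPC thus differed in activin, BMP inhibition, FGF, Wnt-3a, IGF-I, heregulin, days and density at once, and the parts of these cannot be told apart. All cells come from 1 line, and the labels do not say whether the libraries of a cell type are separate cultures.

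NODAL and activin are secreted ligands of the TGF-beta family. They bind type I and type II receptors, NODAL with the help of the co-receptor TDGF1, and the receptors phosphorylate SMAD2 and SMAD3, which join SMAD4 and DNA-binding partners such as FOXH1 on target genes. Among the targets are the ligand gene itself and the inhibitors LEFTY1 and LEFTY2, so the pathway carries both positive and negative feedback. In the early embryo strong NODAL signalling directs cells through the primitive streak to endoderm, and cells shielded from NODAL and BMP take the neural path.

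The authors deposited 1 FPKM value per cell type in each table, so replicates had been combined, and no spread between libraries and no sequencing depth could be read from the values. The authors' test statistic and q-value in the deposited tables are the only statement on replicate spread. Below, rose and fell are used of a gene's level against hESC where the authors' q was below 0.05, and all other genes are given by their values. Changes are differences of log2(FPKM + 1), centred on the median gene of the table, 0.04 in DE and -0.26 in NPC, which understates the change of genes with low FPKM. A difference of 2 on this scale, DE minus NPC, corresponds to 4-fold on the FPKM + 1 scale and has no replicate test. The q-values called few genes in DE and many in NPC. Of 13095 tested genes 55 rose in the authors' deposited DE table, 0.42%, and 1 fell, 0.00764%. The authors' deposited NPC table had 1606 of 13234 tested genes that rose, 12.1%, and 3432 that fell, 25.9%. A gene that passed in NPC and not in DE is therefore not shown to differ between them. These shares are the level to set beside counts of rises and falls in the lists below.

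The hESC column appears in both tables. The series holds 2 hESC libraries and the columns name none, so both columns are taken to pool the same 2. Where the columns differ, the cause was not tested, and the difference is no measure of spread between cultures. After centring, the hESC values of the DE and NPC tables differed by a median of 0.16 on the log2 scale over the 13395 genes, and the 95th percentile of the size of that difference was 0.57. The DE minus NPC differences had a median size of 0.58 and a 95th percentile of 2.49. In 194 genes the hESC columns differed by more than 1, and 28 of these were small RNA genes, which poly-A libraries measure poorly. Across the series the hESC column of the DE table stood apart. Over 11654 genes it differed from the other 3 by a median of 0.14 to 0.15, while those 3 differed among themselves by 0.02 to 0.06.

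**Figure D1:**
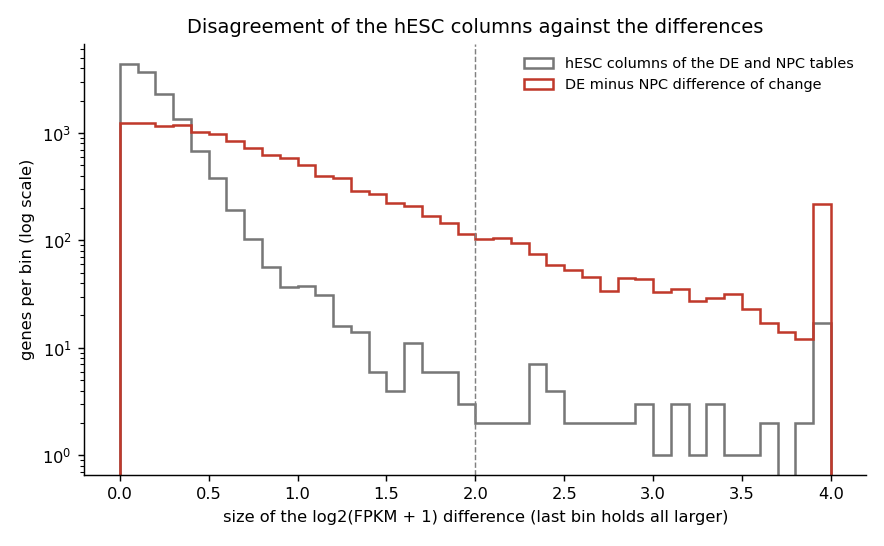
Number of genes per bin (log axis) by the size of a log2(FPKM + 1) difference, for the hESC columns of the DE and NPC tables (grey) and for the DE minus NPC difference of change (red), over 13395 genes with 1 value each. The last bin holds all larger values and the dashed line marks 2; the grey curve drops within 0.57 for 95% of genes, while the red curve reaches 2.49 at the same percentile.

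The labelled cell types were checked against their defining genes. Of the endoderm markers, SOX17, a transcription factor of early endoderm, rose in DE from 2.71 FPKM in hESC to 141, and fell in NPC from 1.24 in hESC to 0. FOXA2, a factor that opens chromatin in endoderm, was at 1.27 in hESC and 35.2 in DE, and fell in NPC from 0.620 to 0. GATA6, an endoderm and mesoderm factor, rose in DE from 1.44 to 104, and was at 0.830 in hESC and 0.0458 in NPC. These 3 genes were thus high in DE alone of the 4 columns. Of the neural markers, PAX6, a factor of the early neural plate and eye field, was at 0.251 in hESC and 2.25 in DE, and rose in NPC from 0.349 to 38.0. SIX3, a factor of the forebrain and eye field, was at 0.0419 in hESC and 0.309 in DE, and rose in NPC from 0.196 to 54.9. SOX1, a neural plate factor, rose in NPC from 0.302 to 5.24, and was at 0.256 in hESC and 0.0238 in DE. The markers given here thus went with the labels, as did EOMES, HHEX and HES5, described below. Other chosen markers separated less clearly. CXCR4 rose in NPC as well as in DE, and SOX2 was already high in hESC. LHX2, a neural factor, did not pass in NPC, with a q of 0.0566 in the authors' deposited table. POU5F1, the core pluripotency factor, was at 232 in hESC and 29.7 in DE, and fell in NPC from 235 to 0.645. CER1 could not be used, since it lies in a locus merged under several symbols, and NANOG had been set apart for values that conflict within its entry.

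Differences between the derivatives were spread over both directions, and DE was the higher side more often. The difference was at least 2 in 624 genes, 4.66% of the 13395, and at most -2 in 473 genes, 3.53%. DE was the higher side in 56.9% of these; the share was 72.2% without centring the tables, with 858 against 330 genes, and 71.8% without the filter on low values. The 624 genes were held up mostly by the NPC side, with a median change of 0.86 in DE and -1.94 in NPC. The 473 genes showed the same, with medians of -0.20 in DE and 2.39 in NPC. Of the 624 genes 528 had at least 1 FPKM in both hESC columns, against 272 of the 473. At the authors' q 39 of the 624 rose in DE and 432 changed in NPC, and 379 of the 473 changed in NPC. Small RNA genes and loci whose hESC columns differed by more than 1 took 5 of the 10 largest and 7 of the 10 smallest differences. Counts below include such genes unless stated.

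Genes that moved in opposite directions were fewer than genes that moved the same way. A change of at least 1 upward in DE and downward in NPC was found for 97 genes, 0.724%, and the reverse for 44 genes, 0.328%. Both changes were at least 1 upward for 246 genes, 1.84%, and downward for 352 genes, 2.63%. The comparisons are taken to share their hESC libraries, so these counts describe the tables and are not a test. Without small RNA genes and loci with hESC columns apart, the 4 classes held 90, 39, 231 and 320 genes.

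**Figure D2:**
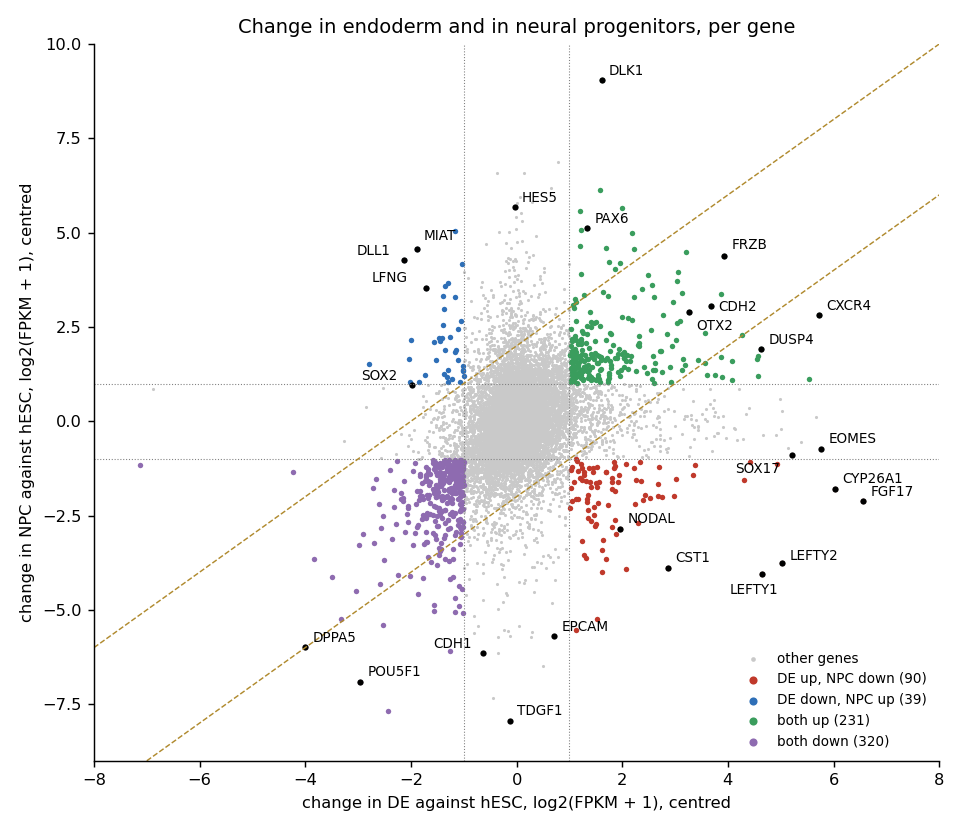
Each point is 1 gene past the filter, with its centred log2(FPKM + 1) change against hESC in DE (x axis) and in NPC (y axis); small RNA genes and loci with hESC columns apart are left out, dotted lines mark a change of 1 and dashed lines a difference of 2. LEFTY1, LEFTY2, FGF17 and CYP26A1 lie far to the lower right, DLL1 and MIAT to the upper left, and the classes hold 90, 39, 231 and 320 genes.

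Leaving small RNA genes and loci with hESC columns apart aside, LEFTY2 and LEFTY1 had the largest differences in favour of DE. They were followed by FGF17 and CYP26A1, described with the endoderm list, and TDGF1, the NODAL co-receptor. LEFTY2 (hg19 chr1:226124297-226129083), a secreted NODAL inhibitor, rose in DE from 14.3 FPKM to 511, and was at 15.6 in hESC and 0.0186 in NPC, a difference of 8.79. LEFTY1 (hg19 chr1:226073981-226076846), its neighbour with the same role, rose in DE from 25.5 to 682, and was at 20.3 in hESC and 0.0626 in NPC, a difference of 8.71. In DE both had a q of 0.0186 in the authors' deposited table. The NPC q of LEFTY1 was 0.0795 and that of LEFTY2 0.0617 in the authors' deposited table, so the low NPC values passed in neither. In bulk RNA fewer expressing cells and less RNA per cell cannot be told apart, here and below. The coding sequences of LEFTY1 and LEFTY2 are 97.2% identical over 1101 bases, with an identical run of 300 bases, so fragments may have been assigned to the wrong copy and their single values are uncertain.

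Ligand genes of the pathway followed the same course. NODAL (hg19 chr10:72191691-72201465) was at 14.1 FPKM in hESC and 59.5 in DE, and fell in NPC from 13 to 0.611, a difference of 4.82. GDF3, a related ligand of early embryonic cells, was at 10.7 in hESC and 43.4 in DE, and fell in NPC from 8.60 to 0, a difference of 4.89. Neither passed in DE, where the q of NODAL was 0.239 and that of GDF3 0.419 in the authors' deposited table. The other ligand and processing genes did not differ by 2. INHBE, an inhibin beta chain, was at 4.27 in hESC and 1.06 in DE, and fell in NPC from 5.07 to 2.18. INHBA and INHBB, the chains of the activins, were below 1 FPKM in all 4 columns, and INHBA fell in NPC. FURIN, a protease that cuts ligand precursors, was at 16.9 in hESC and 50.2 in DE, and at 15.0 in hESC and 13 in NPC.

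The receptors themselves hardly separated the cell types, and the co-receptor did. TDGF1 (hg19 chr3:46616044-46623952), also called CRIPTO, was at 261 FPKM in hESC and 245 in DE, and at 297 in hESC and 0.0117 in NPC, a difference of 7.81. Of the 7 receptor and co-receptor genes found, TDGF1 alone lay past 2, and its NPC q was 0.35 in the authors' deposited table. ACVR1B, the main type I receptor for activin and NODAL, was at 5.38 in hESC and 12.6 in DE, and rose in NPC from 6.59 to 12.7, a difference of -0.06. ACVR2B, a type II receptor, was at 19.7 in hESC and 20.1 in DE, and at 20.6 in hESC and 22.6 in NPC. TGFBR1, the type I receptor for TGF-beta and a further target of SB431542, rose in NPC, from 17.2 to 33.1, and was at 14.6 in hESC and 21.8 in DE. ACVR1C, the remaining receptor that SB431542 blocks, fell in NPC from 0.882 to 0.195 and was at 1.20 in hESC and 0.643 in DE. The 3 receptors blocked by the inhibitor thus had no common direction in NPC.

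Signal carriers showed small differences, and their partner FOXH1 a large one. SMAD2 was at 19.2 FPKM in hESC and 34.1 in DE, and at 15.7 in hESC and 19.7 in NPC. SMAD3 rose in NPC, from 5.58 to 12.9, and was at 5.64 in hESC and 6.65 in DE. SMAD4, the shared partner of all SMAD signals, was at 20.0 in hESC and 14.8 in DE, and at 21.2 in hESC and 16.2 in NPC. FOXH1, the forkhead protein that guides SMAD2 to NODAL targets, was at 46.4 in hESC and 49.0 in DE, and at 56.1 in hESC and 0.106 in NPC, a difference of 5.46. It was thus close to its hESC level in DE and far below it in NPC, while its NPC q was 0.353 in the authors' deposited table.

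Feedback genes and targets had the highest median difference of the 4 roles. All 12 members found were higher on the DE side, 8 of them by 2 or more, and their median difference was 3.40. PMEPA1, which traps receptor SMADs, was at 11.1 FPKM in hESC and 37.6 in DE, and at 9.85 in hESC and 0.0120 in NPC. SMAD7, an inhibitory SMAD, was at 9.07 in hESC and 29.1 in DE, and fell in NPC from 8.21 to 0.710. SKIL, a repressor of SMAD targets, was at 48.2 in hESC and 34.9 in DE, and fell in NPC from 50.1 to 3.96. SKIL therefore differed by 2.61 through NPC alone. Of the whole NODAL and activin list of 33 members found, 31 passed the filter, 12 had a difference of at least 2 and 0 of at most -2, and the median difference was 0.98, against 0.03 over all genes past the filter and -0.28 over all symbols of both tables. By the authors' q 3 members rose in DE, 5 rose in NPC and 11 fell in NPC. Over all tested genes 0.42% rose in DE, 12.1% rose in NPC and 25.9% fell in NPC.

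**Figure D3:**
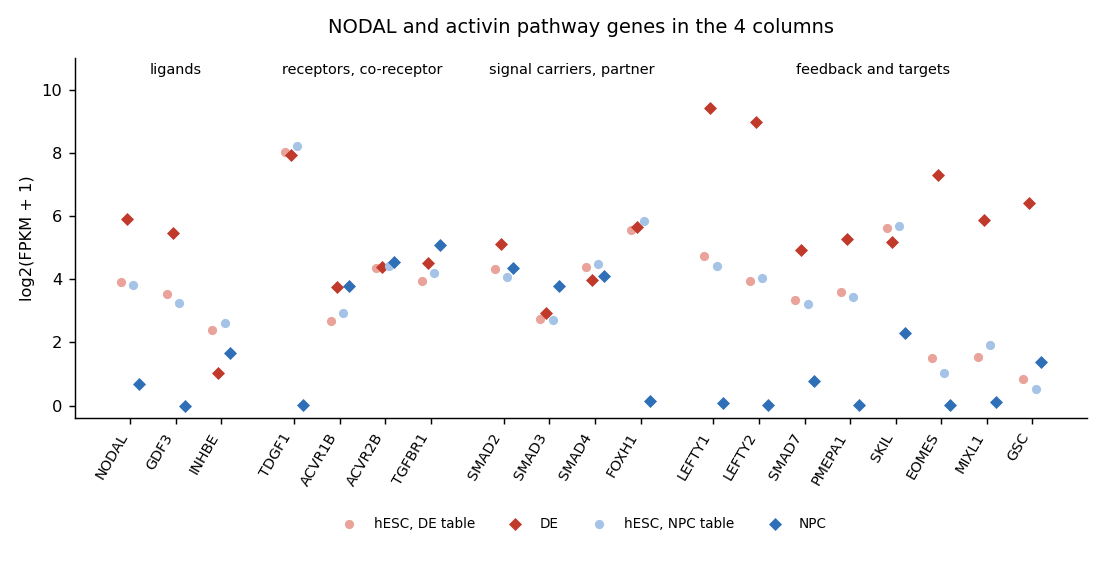
Level of NODAL and activin pathway genes as log2(FPKM + 1), with 1 value per cell type and table: hESC (circles) and DE or NPC (diamonds), red for the DE table and blue for the NPC table. NODAL, GDF3, the co-receptor TDGF1, FOXH1 and the plotted feedback genes and targets other than SKIL and GSC are below 1 in NPC, while the receptors and the SMAD2, SMAD3 and SMAD4 points lie close together.

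Proximal promoters are shown for 2 DE-high genes of this group, GDF3 and MIXL1, because the 250 bases before their start hold the FOXH1 motif AATNCACA on either strand. MIXL1 is a homeobox gene of the primitive streak and a NODAL target described with the streak genes below. The sequences are from RefSeq on GRCh38.p14, at chr12:7695776-7696025 on the minus strand for GDF3 and chr1:226223414-226223663 on the plus strand for MIXL1. Capitals mark the motif, which starts 56 bases before the start of GDF3 and 249 bases before that of MIXL1, where it reads on the other strand.
GDF3: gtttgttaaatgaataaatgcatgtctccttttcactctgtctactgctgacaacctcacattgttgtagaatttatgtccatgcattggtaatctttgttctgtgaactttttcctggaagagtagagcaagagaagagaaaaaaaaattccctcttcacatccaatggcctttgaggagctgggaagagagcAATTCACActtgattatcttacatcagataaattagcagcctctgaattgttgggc
MIXL1: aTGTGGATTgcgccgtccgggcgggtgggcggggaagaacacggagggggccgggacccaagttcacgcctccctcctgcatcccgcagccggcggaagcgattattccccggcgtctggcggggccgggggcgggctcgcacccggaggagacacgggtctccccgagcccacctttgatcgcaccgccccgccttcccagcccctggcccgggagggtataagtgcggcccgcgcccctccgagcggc
The motif stands in 2.89% of 35116 promoter windows of this length. Of the 97 genes up in DE and down in NPC, 63 had windows, and 6 of their 103 windows held it. For genes down in DE and up in NPC, 2 of 43 windows held it. The SMAD box CAGACA stood in 19 of the same 103 windows, in 4 of the 43 and in 13.6% of all windows. A match is a run of letters and was not tied to binding here.

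BMP pathway genes differed in part. Of 35 members found 27 passed the filter, 7 had a difference of at least 2 and 1 of at most -2, and the median difference was 0.20. BMP2, a ligand, rose in both, from 1.60 to 62.0 FPKM in DE and from 1.47 to 5.51 in NPC. ID1, a direct BMP target that blocks basic helix-loop-helix factors, was at 281 in hESC and 186 in DE, and fell in NPC from 265 to 15.2. BAMBI, a decoy receptor, was at 12.4 in hESC and 22.9 in DE, and fell in NPC from 15.0 to 1.36. The ID family did not move as a block. ID2 rose in NPC, from 18.7 to 65.3, and was at 13.9 in hESC and 13.4 in DE, the only member with a difference past -2. SMAD6, an inhibitory SMAD of the BMP branch, was at 4.21 in hESC and 34.2 in DE, and at 3.12 in hESC and 1.99 in NPC. The BMP carriers SMAD1 and SMAD5 differed by -0.37 and -0.27.

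Primitive streak genes, which mark the passage to endoderm and mesoderm, were on the DE side. EOMES (hg19 chr3:27757885-27763785), the T-box factor that starts the endoderm programme, rose in DE from 1.85 to 158 FPKM and was at 1.02 in hESC and 0.0147 in NPC, a difference of 6.50. MIXL1 was at 1.88 in hESC and 57.4 in DE, with a q of 0.999 in the authors' deposited table, and fell in NPC from 2.81 to 0.0727. Its deposited locus was 86966 bases wide in the DE table and 3679 in the NPC table, and that of GSC 1940 and 8826 bases, and the effect on the FPKM of either was not tested. GSC, a homeobox gene of the organizer, was at 0.776 in hESC and 83.8 in DE, and at 0.424 in hESC and 1.59 in NPC. LHX1, an organizer factor, rose in DE from 1.18 to 39.2 and was at 0.730 in hESC and 0.0250 in NPC. Of the 16 members found 13 passed the filter, 8 had a difference of at least 2 and 0 of at most -2, with a median of 2.01. After centring, the hESC level of 13 of the 16 members was the higher in the DE table. The same held for 6697 of the 13395 genes past the filter and for 14323 of 21434 symbols. The last count includes symbols at 0 in both hESC columns, which centring places on the DE side. A higher hESC level lowers the computed DE change.

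The endoderm list had the widest shift toward DE. Of 31 members found 28 passed the filter, 20 had a difference of at least 2 and 0 of at most -2, and the median was 3.04, with 16 members at 1 FPKM or more in both hESC columns. FGF17, a secreted growth factor, rose in DE from 8.44 to 916 and fell in NPC from 5.38 to 0.217, a difference of 8.69. CYP26A1 (hg19 chr10:94831455-94837641), the enzyme that breaks down retinoic acid, rose in DE from 4.28 to 353 and fell in NPC from 3.70 to 0.133, a difference of 7.82. FGF17, CYP26A1, SOX17 and LEPREL1, an enzyme of collagen processing, were the 4 genes that rose in DE and fell in NPC by the authors' q. Of all 26 genes that passed in both tables, 21 rose in both and 1 fell in both. The deposited FGF17 locus was wider in the DE table than in the NPC table, 13835 against 6541 bases, and the effect on its FPKM was not tested.

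Within the endoderm list 9 members rose in DE, and 5 rose and 13 fell in NPC. The shares over all tested genes were 0.42%, 12.1% and 25.9%. GATA4, a partner of GATA6, rose in DE from 0.846 to 56.1 FPKM and was at 0.579 in hESC and 0.0169 in NPC. HHEX, a homeobox factor of anterior endoderm, was at 1.16 in hESC and 27.6 in DE, and fell in NPC from 1.08 to 0. APOA2, an apolipoprotein, was at 1.67 in hESC and 95.2 in DE, and fell in NPC from 0.956 to 0. The gain in DE was thus set against an already low NPC level for these genes. COLEC12, a scavenger receptor, rose in DE from 2.05 to 78.2 and was at 1.62 in hESC and 0.711 in NPC. CXCR4, the chemokine receptor used to sort endoderm, rose in both, from 2.28 to 176 in DE and from 2.0 to 16.6 in NPC. KIT, a receptor tyrosine kinase used for the same purpose, was at 9.13 in hESC and 26.6 in DE, and fell in NPC from 10.3 to 1.80. ELF3, an epithelial factor, did not follow the list, at 5.26 in hESC and 2.05 in DE, with a fall in NPC from 7.10 to 1.34.

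The neural list was the mirror of the endoderm list in count. Of 44 members found 40 passed the filter, 31 had a difference of at most -2 and 0 of at least 2, the median was -3.37, and 15 members had 1 FPKM or more in both hESC columns. Of all genes past the filter 3.53% had a difference of at most -2. By the authors' q 35 rose in NPC and none fell there, and 3 rose in DE. The shares over all tested genes were 12.1%, 25.9% and 0.42%. DLK1 (hg19 chr14:101193201-101201467), a secreted and membrane protein related to the NOTCH ligands, rose in NPC from 2.40 to 1485 FPKM and was at 0.858 in hESC and 4.83 in DE, a difference of -7.42. SMOC1, a secreted matrix protein of the eye, rose in NPC from 0.448 to 114 and was at 0.364 in hESC and 0.0770 in DE. Both genes were low in 3 columns and high in the NPC column. RAX, an eye field factor, rose in NPC from 0.156 to 30.1 and was at 0.102 in hESC and 0.0256 in DE. POU3F1, a POU factor of early neural fate, rose in NPC from 2.40 to 50.3 and was at 2.92 in hESC and 0.955 in DE.

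Part of the neural list was high in DE as well. OTX2, a factor of the anterior neural plate and of anterior endoderm, rose in both, from 17.1 to 177 FPKM in DE and from 23.8 to 153 in NPC. ZIC2, a zinc finger factor, rose in DE from 16 to 118 and in NPC from 14.5 to 90.3. CDH2, the N-cadherin of neural and mesodermal cells, rose in DE from 17.9 to 247 and in NPC from 17.3 to 127. These 3 had differences between -0.05 and 0.62 and so did not separate the cell types. SOX2, a factor of pluripotent and neural cells, was at 238 in hESC and 60.9 in DE, and rose in NPC from 259.6 to 418, a difference of -2.94. SOX11 rose in NPC from 21.9 to 133 and was at 20.9 in hESC and 19.8 in DE.

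NOTCH signalling keeps neural progenitors from turning into neurons, through ligands on 1 cell and receptors on the next. DLL1 (hg19 chr6:170591293-170600137), a ligand, was at 6.53 FPKM in hESC and 0.754 in DE, and rose in NPC from 5.29 to 99.6, a difference of -6.40. LFNG, a glycosyltransferase that tunes the receptor, was at 10.6 in hESC and 2.63 in DE, and rose in NPC from 12.3 to 128. HES5, a repressor that the active receptor switches on, rose in NPC from 0.220 to 50.9 and was at 0.0385 in both columns of the DE table. DLL1 and LFNG were thus below hESC in DE and above it in NPC. JAG1, another ligand, rose in NPC from 14.7 to 54.4 and was at 17.5 in hESC and 9.47 in DE. Of the 20 members 19 passed the filter, 5 had a difference of at most -2 and 0 of at least 2, with a median of -1.44. In NPC 12 rose and 5 fell, against 12.1% and 25.9% of all tested genes. HEY2 went the other way from HES5, with a fall in NPC from 9.64 to 0.447 and values of 9.93 in hESC and 3.54 in DE.

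The promoter of HES5 is shown because it is the NOTCH target with the largest difference toward NPC. It is taken from RefSeq on GRCh38.p14 at chr1:2530264-2530513, minus strand. Capitals mark the 2 matches to GTGGGAA, the core recognised by the NOTCH partner CSL, 1 on each strand.
HES5: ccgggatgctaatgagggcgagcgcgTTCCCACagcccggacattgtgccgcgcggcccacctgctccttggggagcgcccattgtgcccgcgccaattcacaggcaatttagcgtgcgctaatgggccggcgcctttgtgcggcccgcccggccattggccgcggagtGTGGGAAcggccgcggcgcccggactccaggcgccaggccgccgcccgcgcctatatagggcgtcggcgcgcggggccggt
This core stands in 5.43% of the 35116 windows. The same HES5 window also holds 1 match to AATNCACA, the letters searched in GDF3 and MIXL1. Only 29 of the 44 genes down in DE and up in NPC had windows, 43 in all, and GTGGGAA stood in 1 of them. For genes up in DE and down in NPC it stood in 6 of 103 windows.

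FGF was added for DE and left out for NPC, and the response genes split. DUSP5, a phosphatase that turns off ERK, was at 4.75 FPKM in hESC and 45.8 in DE, and fell in NPC from 4.94 to 0.254, a difference of 4.97. ETV4, an ETS factor induced by FGF, was at 24.7 in hESC and 49.3 in DE, and fell in NPC from 36.4 to 1.99. SPRY4, a feedback inhibitor, was at 14.5 in hESC and 39.5 in DE, and fell in NPC from 12.6 to 0.901. EGR1 and FOS had their highest level in NPC and DUSP6 in DE. EGR1, an immediate early gene, rose in NPC from 37.1 to 98.1 and was at 21.6 in hESC and 4.67 in DE. FOS, also an immediate early gene, rose in NPC from 14.1 to 68.2 and was at 11.5 in hESC and 5.51 in DE. DUSP6, the most used read-out of ERK, rose in NPC from 1.98 to 11.3 and was at 1.98 in hESC and 20.9 in DE. Of the 32 members found, all past the filter, 7 had a difference of at least 2 and 2 of at most -2, with a median of 0.39. FGF8, a growth factor of the streak and of brain organizers, rose in NPC from 2.79 to 48.4 and was at 2.71 in hESC and 30.6 in DE. FGF2, an FGF made by hESC themselves, whose deposited locus was 96297 and 492858 bases wide, was at 66.1 in hESC and 10.4 in DE, and fell in NPC from 86.6 to 15.0.

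Many epithelial genes stayed near their hESC level in DE and were lower in NPC, with median changes of -0.03 and -1.59 over the list. CDH1 (hg19 chr16:68771194-68870888), the E-cadherin of epithelial junctions, was at 77.1 FPKM in hESC and 50.8 in DE, and fell in NPC from 89.6 to 0.0631, a difference of 5.52. EPCAM (hg19 chr2:47596286-47614167), an epithelial adhesion molecule, was at 115 in hESC and 195 in DE, and fell in NPC from 159.7 to 1.58, a difference of 6.41. ESRP1, the splicing regulator of epithelial isoforms, was at 72.4 in hESC and 57.6 in DE, and fell in NPC from 90.3 to 0.444. All 3 were within 2-fold of hESC in DE. CLDN6, a claudin of tight junctions whose deposited locus was 3476 bases wide in the DE table and 7758 in the NPC table, was at 481 in hESC and 429 in DE, and fell in NPC from 541 to 18.2. CLDN7 was at 59.0 in hESC and 73.7 in DE, and at 62.8 in hESC and 0 in NPC. TJP1, the tight junction scaffold, stayed close throughout, at 34.2 in hESC and 32.1 in DE, and at 40.9 in hESC and 28.0 in NPC. Of the 36 members 34 passed the filter, 16 had a difference of at least 2 and 0 of at most -2, with a median of 1.84. The other 20 lay within 2. In NPC 27 fell and 0 rose, against 25.9% and 12.1% of all tested genes. None passed in DE, where only 0.42% of all tested genes rose and 0.00764% fell.

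Genes of mesenchymal cells and matrix did not form the opposite pattern. Of 22 members 14 passed the filter, 2 had a difference of at least 2 and 4 of at most -2, and the median of 0.08 changed sign under other settings. ZEB2, a repressor of CDH1, rose in NPC from 0.204 to 17.6 FPKM and was at 0.0164 in hESC and 0.213 in DE. ZEB1, its relative, rose in NPC from 0.0826 to 11.2 and was at 0.0572 in hESC and 0.465 in DE. COL5A2, a fibrillar collagen chain, rose in DE from 6.10 to 171 and was at 6.50 in hESC and 13.2 in NPC. The ZEB genes thus stood on the NPC side and the collagen on the DE side. VIM, the intermediate filament vimentin, rose in NPC from 93.8 to 223 and was at 78.3 in hESC and 281 in DE.

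**Figure D4:**
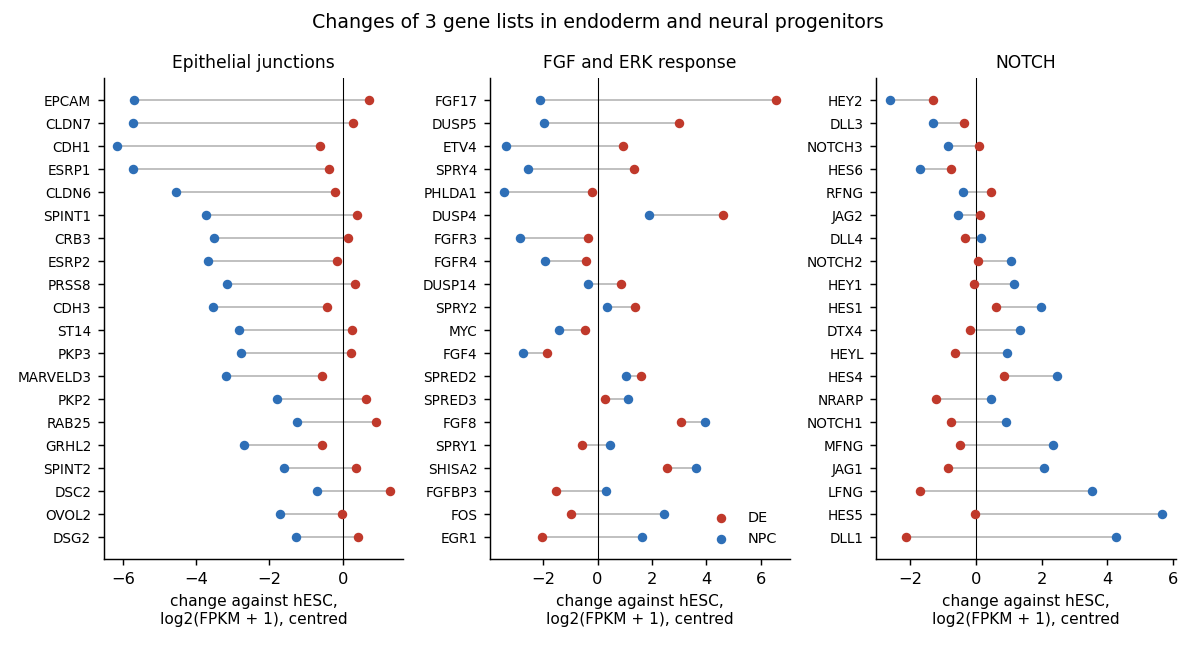
Centred log2(FPKM + 1) change against hESC in DE (red) and NPC (blue), 1 value per gene, for the 20 members with the largest absolute difference in each of 3 lists, ordered by difference. Epithelial genes lie below 0 in NPC and further right in DE, FGF and ERK response genes fall on both sides, and DLL1, HES5 and LFNG are far to the right in NPC.

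CST1, S100A10, KRT8 and SERPINE2 were among the other genes up in DE and down in NPC. CST1 (hg19 chr20:23727353-23731574), a secreted inhibitor of cysteine proteases, was at 31.6 FPKM in hESC and 242 in DE, and fell in NPC from 16.7 to 0. Its neighbours CST2 and CST4 had differences of 4.67 and 4.76, and the coding sequences of the 3 are 82.4% to 92.5% identical, so their reads may be split wrongly. S100A10, which binds annexin at the membrane, was at 119 in hESC and 265 in DE, and fell in NPC from 102 to 0.858. Its partner ANXA2, named after its values were seen, was at 51.2 in hESC and 132 in DE, and fell in NPC from 62.8 to 3.34. KRT8, a keratin of simple epithelia, was at 97.7 in hESC and 353 in DE, and fell in NPC from 96.1 to 27.5. SERPINE2, a secreted protease inhibitor, was at 109.8 in hESC and 540.1 in DE, and fell in NPC from 76.1 to 13.1. None of the genes of this paragraph passed in DE, where the q of CST1 was 0.0996 and that of SERPINE2 0.0661 in the authors' deposited table. In this class of 97 genes 83 changed in NPC and 6 in DE by the authors' q, 3 of them in both.

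Beside DLL1 and LFNG, the genes down in DE and up in NPC included DDIT4, MIAT and TTYH1. DDIT4, a stress-induced brake on mTOR signalling, was at 55.5 FPKM in hESC and 13.4 in DE, and rose in NPC from 64.3 to 239. MIAT, a long non-coding RNA of neural tissue, was at 6.48 in hESC and 1.07 in DE, and rose in NPC from 8.51 to 187. TTYH1, a membrane protein of neural cells, was at 23.9 in hESC and 2.67 in DE, and rose in NPC from 37.5 to 91.1. Of the 44 genes 39 rose in NPC by the authors' q and 0 passed in DE.

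Genes up in both included inhibitors of WNT ligands. SFRP1, a secreted frizzled-related protein, rose in DE from 18.8 to 176 FPKM and in NPC from 20.8 to 189. FRZB, of the same family, rose in DE from 1.81 to 43.1 and in NPC from 2.55 to 60.8. FBN2, a fibrillin of the matrix, rose in DE from 3.56 to 35.3 and in NPC from 3.30 to 30.9. Levels of these 3 were close in the derivatives. DUSP4, an ERK phosphatase, rose in both but further in DE, from 1.15 to 53.6 in DE and from 1.36 to 6.39 in NPC. Of the 246 genes 20 passed in both tables by the authors' q.

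Of the 28 pluripotency genes found, all past the filter, 12 were down by at least 1 in both derivatives, against 2.63% of all genes past the filter. In NPC 22 fell, against 25.9% of all tested genes. In DE 0 passed, where only 0.00764% of all tested genes fell. The median change was -0.96 in DE and -2.87 in NPC. The median difference was 1.66, with 13 members at 2 or more and 1, SOX2, at -2 or less. PRDM14, a repressor that guards the pluripotent state, was at 73.6 FPKM in hESC and 12.2 in DE, and fell in NPC from 78.7 to 0.575. DNMT3B, a DNA methyltransferase, was at 834 in hESC and 249.6 in DE, and fell in NPC from 998 to 45.5. ESRG, a long non-coding RNA of hESC, was at 325 in hESC and 60.8 in DE, and fell in NPC from 283 to 0.163. These 3 held an intermediate level in DE. LOC100506013, an uncharacterised transcript, was the 1 gene that fell in both, from 45.0 to 2.31 in DE and from 89.1 to 4.99 in NPC. LIN28A, an RNA-binding protein, was at 406 in hESC and 259.6 in DE, and fell in NPC from 478 to 266, a difference of only -0.10. SALL4, a zinc finger factor, was at 52.4 in hESC and 52.5 in DE, and at 62.4 in hESC and 82.8 in NPC. DE had 4 days and NPC 6 days in culture, so time and fate cannot be told apart here.

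WNT response genes leaned to DE, whose medium held Wnt-3a on the first day. Of 20 members found 18 passed the filter, 6 had a difference of at least 2 and 1 of at most -2, with a median of 0.85. NOTUM, an enzyme that inactivates WNT ligands, was at 3.04 FPKM in hESC and 18.3 in DE, and fell in NPC from 2.43 to 0.202. DKK1, a secreted WNT inhibitor, was at 2.61 in hESC and 23.2 in DE, and fell in NPC from 1.61 to 0.266. AXIN2, the most general WNT target, was at 19.2 in hESC and 26.9 in DE, and fell in NPC from 19.8 to 6.45, a difference of 1.65. LEF1, a nuclear partner of beta-catenin, was the 1 member at -2 or less, with a rise in NPC from 0.443 to 5.30. It was at 0.101 in hESC and 0.196 in DE. In all 13 members were the higher on the DE side and 7 on the NPC side. By the authors' q 4 rose and 8 fell in NPC, against 12.1% and 25.9% of all tested genes.

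Retinoic acid genes showed 3 of 20 members at 2 or more and 1 at -2 or less, with 15 past the filter and a median of 0.29. Beside CYP26A1, ALDH1A3, which makes retinoic acid, was at 10.7 FPKM in hESC and 11.5 in DE, and fell in NPC from 9.34 to 0.159. CRABP1, a carrier of retinoic acid, rose in NPC from 112 to 385 and was at 94.8 in hESC and 94.9 in DE. ALDH1A3 and CYP26A1 were thus the higher in DE, and the other synthesis and breakdown genes of the list are not described.

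IGF-I and heregulin were present for NPC and absent for DE. Genes that FOXO factors switch on when insulin signalling is low had no common direction. Of 20 members 18 passed the filter, 1 had a difference of at least 2 and 4 of at most -2, and the median of -0.12 changed sign under other settings. TXNIP, a thioredoxin-binding protein that limits glucose uptake, rose in NPC from 21.8 to 186 FPKM and was at 22.6 in hESC and 9.75 in DE. CCNG2, an atypical cyclin, rose in NPC from 8.13 to 77.9 and was at 9.09 in hESC and 12.9 in DE. ERBB3, the heregulin receptor, was at 14.8 in hESC and 12.8 in DE, and fell in NPC from 21.1 to 1.58. TXNIP and CCNG2 were thus the higher in NPC, and the part of IGF-I in this was not tested. The TXNIP promoter is shown since TXNIP had the largest difference of the list, from RefSeq on GRCh38.p14 at chr1:145996580-145996829 on the minus strand, with the forkhead core GTAAACA in capitals, 124 bases before the start, which is 1 of 2 starts listed.
TXNIP: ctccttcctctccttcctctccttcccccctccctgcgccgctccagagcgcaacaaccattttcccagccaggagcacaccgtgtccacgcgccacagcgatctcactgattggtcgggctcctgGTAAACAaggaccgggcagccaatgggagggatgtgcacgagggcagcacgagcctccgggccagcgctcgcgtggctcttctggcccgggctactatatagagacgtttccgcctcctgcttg
This core stands in 2.98% of the windows, in 1 of the 103 windows of genes up in DE and down in NPC and in 2 of the 43 of the reverse class.

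Genes of cell types that the cultures could also hold were mostly low. Of 18 cardiac and lateral mesoderm markers 11 passed the filter and 3 had a difference of at least 2, and their summed level was 45.9 FPKM in hESC and 172 in DE, and 56.8 in hESC and 13.8 in NPC. MYL7, an atrial myosin light chain, rose in DE from 2.28 to 102 and was at 1.75 in hESC and 0.0350 in NPC, so it carried most of the DE sum. MYL4 was the other of 2 members that rose in DE, with a q of 0.0186 in the authors' deposited table. Over all tested genes 0.42% rose in DE. HAND1, a lateral mesoderm factor, was at 0.142 in hESC and 0.646 in DE, and at 1.47 in hESC and 0.0827 in NPC, and its hESC columns differed by -1.02 after centring. The parts of other cells in the endoderm and streak results were not tested. Of 16 neural crest and placode markers 9 passed the filter, 3 had a difference of at least 2 and 3 of at most -2, with summed levels of 45.5 in hESC and 48.9 in DE, and 54.4 in hESC and 47.0 in NPC. SOX9, a crest and glial factor, rose in NPC from 2.87 to 23.4 and was at 2.25 in hESC and 1.25 in DE. Of 15 markers of neurons 9 passed the filter and 2 had a difference of at most -2, with sums of 44.4 in hESC and 47.4 in DE, and 41.7 in hESC and 35.2 in NPC. DCX, a marker of young neurons, rose in NPC from 0.895 to only 2.82 and was at 1.01 in hESC and 0.205 in DE. Of 18 trophoblast and amnion markers 7 passed the filter, 2 had a difference of at least 2 and 1 of at most -2, with sums of 29.2 in hESC and 20.0 in DE, and 30.7 in hESC and 36.3 in NPC.

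Few cell division and energy genes differed by 2 or more. None of the 18 proliferation genes reached a difference of 2 either way, and the median was 0.20. In NPC 11 of them fell and 0 rose, against 25.9% and 12.1% of all tested genes. The median change was -0.32 in DE and -0.62 in NPC. PCNA, MCM5, CCNB1 and CCNE1 were among those that fell. MKI67, a marker of dividing cells, was not among them. It was at 26.7 FPKM in hESC and 20.8 in DE, and at 24.9 in hESC and 33.1 in NPC. Of 24 genes of glycolysis and mitochondria 1 lay past 2 in each direction, and the median was 0.45. The DE side was the higher for 19 of them and the NPC side for 5. In NPC 13 fell and 2 rose, against 25.9% and 12.1% of all tested genes. CHCHD2, a mitochondrial protein, rose in NPC from 0.315 to 20.4 and was at 0.292 in hESC and 0.224 in DE, a difference of -4.40. ATP5G1, a subunit of the ATP synthase, was at 128 in hESC and 83.6 in DE, and fell in NPC from 153 to 16.9.

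**Figure D5:**
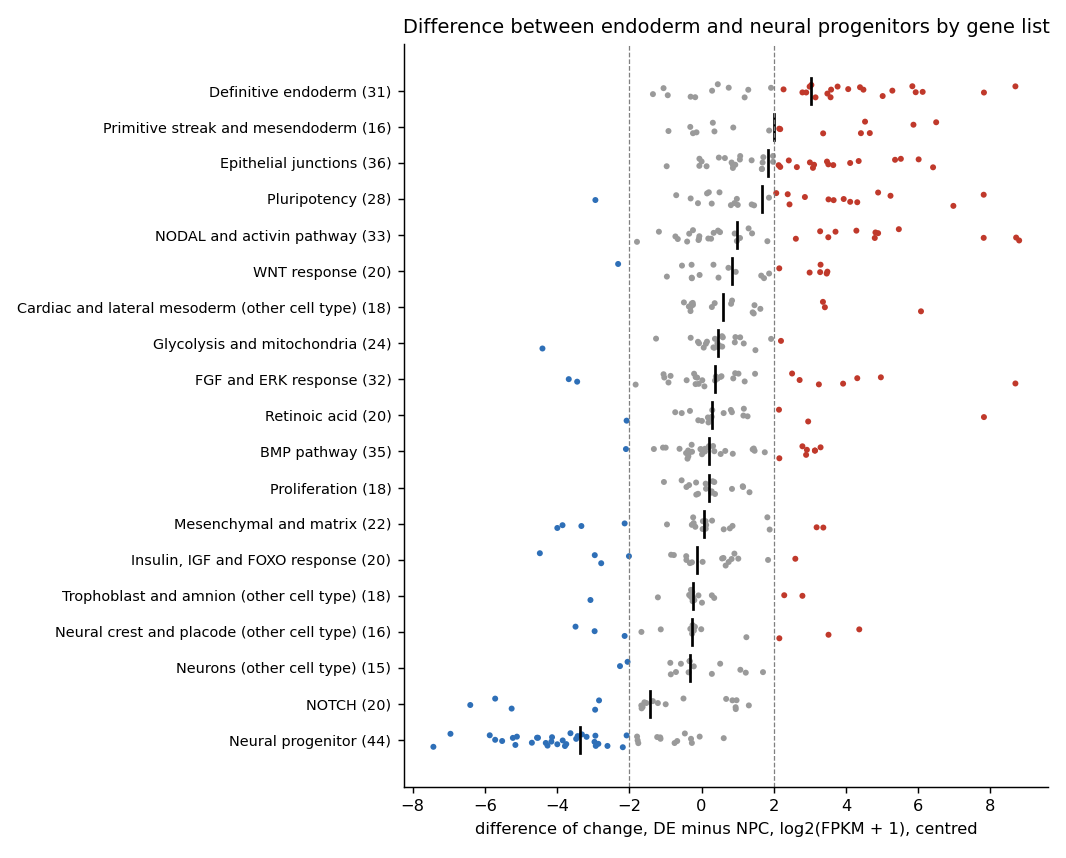
Difference of change, DE minus NPC, on the centred log2(FPKM + 1) scale for each member found of the 19 lists, with the number of members in brackets, the median as a black bar and dashed lines at -2 and 2. Endoderm members lie furthest to the right with a median of 3.04 and neural progenitor members furthest to the left with a median of -3.37.

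Levels in the remaining derivatives set the leading genes in context. LEFTY1 was at 0.816 FPKM in the mesoderm cells and 0.0419 in the pre-neural crest cells, so its DE level of 682 was the highest of the 5 cell types. CDH1 was at 137 in mesoderm and 0.823 in pre-neural crest. DLK1 was at 11.8 in mesoderm and 545 in pre-neural crest, and PAX6 at 0.237 and 0.348. CHCHD2 was at 0.598 and 45.1. How the tables were scaled to each other is not given in the sources used here, so levels across them are a description.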

How the data were processed

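Poly-A RNA of WA09 hESC and of 4 derivatives was sequenced, 2 libraries each, per the labels' protocols. Cufflinks 2.2.1, TopHat2 2.0.13, featureCounts and Subread 1.5.2 and the build hg19 are named in the submitters' processing notes, with no role. The deposited FPKM values are 1 per cell type and table, so the authors had combined the replicates; library depth is not given in the sources used here. Their test statistic is a signed score computed by the authors, and the p-value and q-value are the authors' too, per the file headers.

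Rows off chromosomes 1 to 22 and X were left out (1314 in each of the DE and NPC tables), as were merged loci (512 and 598) and 18 symbols whose FPKM and score had opposite signs, whose log2 ratio was small for the score, or whose FPKM held more than 6 significant digits, unlike the other rows (rules taken over from earlier results). Where a symbol had more than 1 entry, that with the largest mean FPKM was used. Changes used a pseudocount of 1 and were centred on the table median. The planned limma fit needed libraries and could not be run, so no test was made and the authors' q below 0.05 is quoted. Genes were named by rule: the 10 largest and 10 smallest differences, the 8 leading genes of each class, 6 members per list with the largest absolute difference, LEFTY1, EOMES and PAX6, and list members that a role needed. The rule was also applied without small RNA genes and loci whose hESC columns differed by more than 1, a step chosen after seeing the data. Not every gene that the rule picked is described. ACYP2, whose difference of -7.73 was the furthest toward NPC after that step, is 1 of those left out. Members and lists were chosen with earlier results of these data known. The 19 lists share some genes. The calculation was tested on simulated data. Promoters came from RefSeq, GRCh38.p14. Python 3.11.15, pandas 2.3.3, NumPy 2.4.6 and Matplotlib 3.10.9 were used. Alternatives were other pseudocounts, thresholds, filters, centring, quantile normalization, merged loci kept and a direct comparison of the DE and NPC columns, and, chosen after seeing the data, small RNA genes or loci with hESC columns apart left out, symbols set apart kept, and the hESC column of the NPC table for both. Values of a few list members are not reported here.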

Additional observations from a re-analysis of the deposited data

Results flagged for a closer look

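In 4 genes the authors' q called a rise in DE and a fall in NPC, so that the same contrast with hESC went opposite ways in the 2 derivatives. The DE minus NPC difference on the centred log2(FPKM + 1) scale was 8.69 for FGF17, 7.82 for CYP26A1, 6.12 for SOX17 and 4.55 for LEPREL1. The difference itself was not tested, since each table holds 1 value per cell type. LEPREL1 rose in DE from 8.85 FPKM to 104 and fell in NPC from 11.2 to 3.52. The hESC columns of the 4 genes differed by -0.21 to 0.82 between the tables after centring.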

How the results depend on the processing

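Replicates were combined in the tables, so no library could be left out. No paired analysis was possible because the columns carry no replicate numbers. A pseudocount of 0.1 gave 1205 genes at 2 or more and 918 at -2 or less, with 235 up in DE and down in NPC, 159 the reverse, 476 up in both and 632 down in both. A pseudocount of 5 gave 278, 153, 43, 11, 80 and 126 in the same order. A difference of 1 gave 1972 and 1817 genes, and a difference of 3 gave 270 and 171. A change of at least 2 left 11, 3, 38 and 49 genes in the 4 classes. At a q below 0.1 the authors' deposited DE table had 91 genes higher and 7 lower. The other settings stayed within 1.5 times of the reported counts. Of 171 named genes past 2, those that could be recomputed kept their direction under the 12 alternatives (165 with FPKM of at least 5, 167 with hESC columns within 1, 171 otherwise), and 124 remained past 2 at a pseudocount of 5. Many of these genes were picked for large differences in the same 4 columns, so a reversal was unlikely and kept directions are description only. List medians changed sign for the insulin and FOXO list (-0.18 to 0.18), the mesenchymal list (-0.08 to 0.38), the trophoblast list (-0.25 to 0.05) and the neural crest list (-0.25 to 0.05). All values are single, so the spread between cultures is unknown, and the hESC disagreement of 0.57 is no measure of it.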

Other observations

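A few genes had hESC columns that differed between the tables. MT1G, a small metal-binding protein, was at 17.2 FPKM in hESC and 29.7 in DE, and at 151 in hESC and 0.186 in NPC, and its hESC columns differed by -2.97 after centring. STC1, a secreted glycoprotein of the endoderm list, rose in DE from 5.20 to 98.4 and was at 16.1 in hESC and 15.3 in NPC, with hESC columns that differed by -1.37. MT1G and STC1 were named after their values were seen. Other genes with a large difference toward NPC stood outside the lists. IGFBP5, a binding protein of IGF, rose in NPC from 0.870 to 181 and was at 0.781 in hESC and 2.16 in DE. NR2F2, a nuclear receptor, rose in NPC from 0.0693 to 37.1 and was at 0.0450 in hESC and 0.0628 in DE.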
